A study of Homo sapiens with 8 samples.

Results

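The regions described here are stretches of the genome in DU145 prostate cancer cells where chromatin immunoprecipitation sequencing (ChIP-seq) found ETS1 together with JUND and without GABPA, ELF1 or ELK4. They were chosen by overlap of the deposited peak lists. A member is a peak of the first of the 2 DU145 ETS1 lists that shares at least 1 bp with a peak of the second ETS1 list and with a JUND peak, and with no GABPA, ELF1 or ELK4 peak. Of the 9984 peaks of the first ETS1 list, 307 met the rule. Of the 8183 ETS1 regions present in both lists they were 3.75%.

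ETS1 and JUND belong to families that bind DNA differently. ETS1, GABPA, ELF1 and ELK4 are ETS factors, whose shared domain recognises a GGAA core, so different members of the family can compete for the same site. JUND is a subunit of AP-1, the dimer of JUN and FOS family proteins that binds a site known from phorbol ester response elements. Neighbouring ETS and AP-1 sites are known from RAS-responsive enhancers, and ETS1 is itself a substrate of the RAS/ERK kinase cascade, in which the title of the series places it. GABPA and ELF1 are best known from promoters of broadly used genes, and ELK4 from sites it occupies with serum response factor.

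The series has 8 samples of 2 established human cell lines, 1 per group. The tested factors were JUND, GABPA, ELF1, ELK4 and ETS1 in DU145, and ETS1 in PANC1, a pancreatic cancer line. The unprecipitated input of each line was not analysed here. All cells are described by line and antibody alone. The growth notes mention puromycin for selected cells and do not say which samples were selected. No group has a replicate, so each interval and p-value below covers counting error over regions and not the variation between cultures. The lists give positions without a score or read count, so the depth behind a peak is unknown. Gene names, motifs and sequence are not given for these hg19 intervals, because no genome or annotation of that build was used here.

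The path to the 307 regions shows which lists shaped the set. Of the first ETS1 list, 8183 peaks (82.0%) overlapped the second list. Of these, 400 (4.89%) overlapped JUND. A further 93 of the 400 were set aside because they also held another ETS factor, which was GABPA in 75, ELK4 in 28 and ELF1 in 12, some with more than 1 of them. GABPA therefore did most of the excluding, and its list of 2478 peaks is also much longer than that of ELK4 (337) or ELF1 (256). A region without an ELF1 or ELK4 peak is not shown to lack the protein. Among the 1801 first-list peaks that the second list missed, 43 held JUND and no other ETS factor.

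The rule left out regions that held another ETS factor, so the distances from members to those factors are given as a description. They were not measured for the regions with neither JUND nor another ETS factor. The nearest GABPA, ELF1 or ELK4 peak lay 1310 bp from the edge of a member at the least, with a median distance of 101871 bp. No member had one within 1000 bp, and 31 of 307 (10.1%) had one within 10000 bp. At the other edge of the rule, JUND overlap was as little as 24, 53, 58, 75 and 111 bp in the 5 members with the least. The member with 24 bp spans chr10:6779350-6779847. The 5 closest regions that the rule left out for lack of JUND, and that held no other ETS factor, ended 64, 173, 221, 365 and 490 bp from a JUND peak. The first of them lies at chr15:60689004-60690730. The largest JUND overlap among members was 3796 bp, at chr16:3069931-3074975.

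ETS1 peaks of the members were wide. Their median width in the first list was 1585 bp, with quartiles of 1114 and 2296 bp and a range from 485 to 13707 bp. The 93 regions with JUND and another ETS factor had a median of 1893 bp, the 2396 with another ETS factor and no JUND one of 1352 bp, and the 5387 with neither one of 1195 bp. A wide interval meets a JUND peak more easily than a narrow one, so width is tied to the rule and was not tested. Members also stood later in the first ETS1 list than regions with other ETS factors did. Their median line was 3945, against 1200 where JUND and another ETS factor met, 2436 for another ETS factor without JUND and 5013 for neither. No source used here explains the line order.

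JUND sat close to ETS1 in most members. The second ETS1 list holds windows of about even width (median 497 bp), whose centres give a narrower position than the first list. From the window centre to the nearest JUND centre in the same member the median was 173 bp (95% order-statistic interval 143.5 to 203 bp), with quartiles of 70 and 408 bp and a range from 1 to 4091 bp. The centres were within 50 bp in 57 of 307 members (18.6%, Clopper-Pearson 95% interval 14.4 to 23.4%), within 200 bp in 171 (55.7%, 49.95 to 61.3%) and within 500 bp in 249 (81.1%, 76.3 to 85.3%). In 265 members (86.3%, 82.0 to 89.96%) the window itself met a JUND peak. The median was 141 bp in the regions with JUND and another ETS factor, and 58 of those 93 (62.4%, 51.7 to 72.2%) had the centres within 200 bp, an interval that overlaps that of the members. These distances come from the lists that chose the members and are given as a description.

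Most members were simple, with 1 JUND peak. That was so in 298 of 307, while 8 held 2 JUND peaks and 1 held 3. A second ETS1 window was found in 4 members. The members took up 316 of the 1308 JUND peaks. Those 316 had a median width of 761.5 bp, and the 788 JUND peaks outside both ETS1 lists one of 667.5 bp.

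The closest pairing of the factors was at chr17:57914430-57921888, where the centres of a JUND peak and of the ETS1 window were 1 bp apart. Next came chr1:16840007-16841508 with 1.5 bp, chr8:48920434-48921625 with 2 bp, chr1:150544340-150545474 with 2.5 bp and chr12:109231745-109232738 with 3 bp. PANC1 ETS1 peaks were present in the closest and the second closest of these 5. The JUND peaks at these windows were 480 to 796 bp wide.

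**Figure D1:**
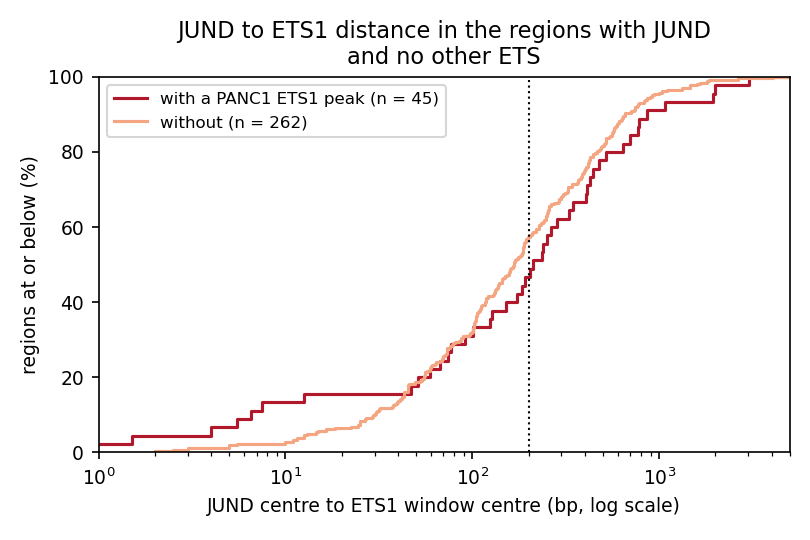
Cumulative share of member regions (%) against the distance between the JUND centre and the centre of the second-list ETS1 window (bp, log scale), for the 45 members with a PANC1 ETS1 peak and the 262 without. The dotted line marks 200 bp, and the curves run close together, with medians of 211 bp with a PANC1 peak and 166.8 bp without.

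The 10 widest members varied in layout. The widest, at chr11:65184646-65198352, spans 13707 bp and holds 2 JUND peaks, of which one of 2714 bp covers the ETS1 window. A neighbour on the same chromosome, from 65264430 to 65275740, spans 11311 bp and is the single member with 3 JUND peaks. One of the 3 covers the ETS1 window, and another, 7887 bp from it by centres, meets a PANC1 ETS1 peak of its own. Both regions thus had a broad JUND peak over the ETS1 window and further JUND peaks kilobases away.

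In some other wide members JUND and the ETS1 window were apart. At chr10:75668381-75678140 (9760 bp), the JUND centre was 3032.5 bp from the window centre, while a PANC1 ETS1 peak lay 239.5 bp from it. At chr19:1248024-1255832 (7809 bp), the distance of 4091 bp was the longest of all members. The neighbours chr12:52624460-52633840 and chr12:52636380-52644489 each held 2 JUND peaks and no PANC1 peak. The window of the first of the pair met JUND, and that of the second did not, with the nearer JUND centre 1854 bp away.

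The remaining 4 of the 10 widest had JUND on the window. Chromosome 17 holds 2 of them. From 57914430 to 57921888 a second JUND peak of 2848 bp lay 5160 bp from the window, with PANC1 ETS1 peaks at 1264.5 and 3228.5 bp, between both JUND peaks. From 79475615 to 79482453 the PANC1 peak centre lay 179.5 bp from the ETS1 window and 60.5 bp from JUND. At chr22:30648255-30654408, JUND was at 1 of 2 ETS1 windows, the other being 4728.5 bp away, and PANC1 had no peak. At chr12:6642138-6648280, the 3 kinds of peak coincided, with JUND at 173 bp and PANC1 ETS1 at 25.5 bp from the window centre. Of the 10 widest members 6 held a PANC1 ETS1 peak.

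**Figure D2:**
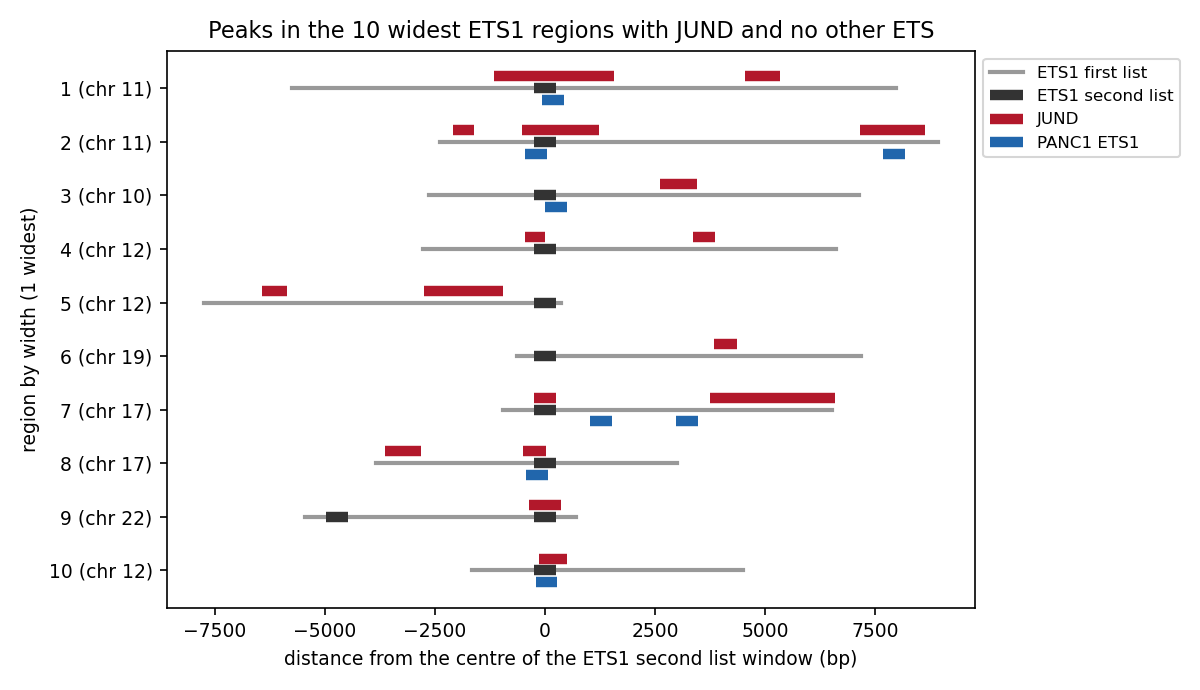
Positions of peaks in the 10 widest members, widest on top, as the distance in bp from the centre of the second-list ETS1 window. Grey lines are the first-list ETS1 peaks, black bars the second-list windows, red bars JUND and blue bars PANC1 ETS1, which is present in 6 of the 10.

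ETS1 in PANC1 cells is a readout that the rule did not use. A PANC1 ETS1 peak was present in 45 of the 307 members, or 14.7% (Clopper-Pearson 95% interval 10.9 to 19.1%). It was present in 18 of 93 regions with JUND and another ETS factor (19.4%, 11.9 to 28.9%), in 64 of 2396 with another ETS factor and no JUND (2.67%, 2.06 to 3.40%) and in 168 of 5387 with neither (3.12%, 2.67 to 3.62%). The share over all 8183 ETS1 regions was 3.61%. Members were therefore above both sets without JUND, by intervals that do not meet.

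The odds of a PANC1 peak were 5.33 times as high in members as in regions with neither JUND nor another ETS factor (95% interval from 3.66 to 7.64, two-sided Fisher's exact test, adjusted p = 6.28e-16). The p-values were adjusted over 3 comparisons by the Benjamini-Hochberg method. Against regions with another ETS factor and no JUND the odds ratio was 6.25 (4.08 to 9.51, Fisher's exact test, adjusted p = 6.06e-16). No difference was detected between members and regions with JUND and another ETS factor (0.716, 0.380 to 1.40, Fisher's exact test, adjusted p = 0.329), an interval that holds both a lower and a somewhat higher share in members. Its direction turned in 4 settings, none past the threshold, with odds ratios of 1.76 pooled within line groups, 1.69 pooled within groups of width and line, 1.70 where overlap was replaced by centres at most 200 bp apart, and 1.34 among the wider peaks of every list. The comparison with JUND and another ETS factor was added after the data were seen. Neighbouring regions are not independent, and more JUND at regions shared with PANC1 was already known from these lists when the members were chosen, so the p-values are no independent evidence.

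**Figure D3:**
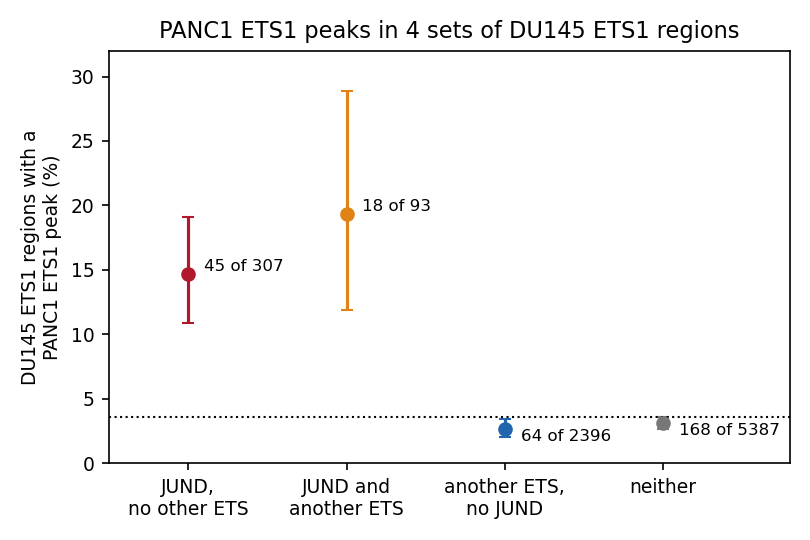
Share of DU145 ETS1 regions that hold a PANC1 ETS1 peak (%), for the members and for the other 3 sets of ETS1 regions, with Clopper-Pearson 95% intervals and counts. The dotted line is the 3.61% of all 8183 regions, below both sets with JUND and above both sets without it.

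Width and line order moved with this result. Members are wider than the sets without JUND, and the wider regions of each set met PANC1 peaks more often than the narrower ones. The ETS1 regions were therefore split into 5 equal groups by width and, apart from that, by line. In the 2 widest groups, from 1373 bp up, 43 of 187 members (22.99%, 17.2 to 29.7%) held a PANC1 peak, against 18 of 75 (24.0%, 14.9 to 35.3%) with JUND and another ETS factor, 55 of 1133 (4.85%, 3.68 to 6.27%) with another ETS factor and no JUND and 113 of 1878 (6.02%, 4.98 to 7.19%) with neither. In the 3 narrowest groups it was 2 of 120 members (1.67%, 0.203 to 5.89%). Regions with JUND and another ETS factor had 0 of 18 there (0 to 18.5%), where 3 counts would make 16.7%. Regions with another ETS factor and no JUND had 9 of 1263 (0.713%, 0.326 to 1.35%), and regions with neither 55 of 3509 (1.57%, 1.18 to 2.04%). The excess of PANC1 peaks over the sets without JUND was thus seen among wide members. For the 120 narrow ones, the interval overlapped those of both sets without JUND, and no test was run there. Regions with JUND and another ETS factor likewise had their PANC1 peaks in the 2 widest groups. Pooled within width groups, the odds ratio for members against regions with neither was 3.45 (2.38 to 5.01, Mantel-Haenszel). It was 4.45 (2.89 to 6.85) against regions with another ETS factor and no JUND, and 0.971 (0.519 to 1.82) against regions with JUND and another ETS factor. The widest group, from 1690 to 13707 bp, held 45.9% of members and 17.5% of regions with neither. Widths were not matched within it.

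Line order gave a steeper split. In the first group, up to line 1640, 38 of 86 members (44.2%, 33.5 to 55.3%) held a PANC1 peak, against 16 of 55 (29.1%, 17.6 to 42.9%) with JUND and another ETS factor, 47 of 834 (5.64%, 4.17 to 7.42%) with another ETS factor and no JUND and 59 of 662 (8.91%, 6.85 to 11.4%) with neither. The second group had 5 of 52 members with a PANC1 peak, and the third 2 of 49. In the last 2 groups together it was 0 of 120 members (0 to 3.03%), where 3 counts would make 2.50%. Regions with another ETS factor and no JUND had 1 of 433 (0.231%, 0.00585 to 1.28%) and regions with neither 49 of 2711 (1.81%, 1.34 to 2.38%). Regions with JUND and another ETS factor had 0 of 9 there, too few to set beside them. Pooled within line groups, the odds ratio for members was 4.32 (2.96 to 6.31) against regions with neither, 10.1 (6.54 to 15.7) against regions with another ETS factor and no JUND and 1.76 (0.906 to 3.42) against regions with JUND and another ETS factor. The joining of groups was chosen after their values were seen, and the difference between groups was not tested.

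**Figure D4:**
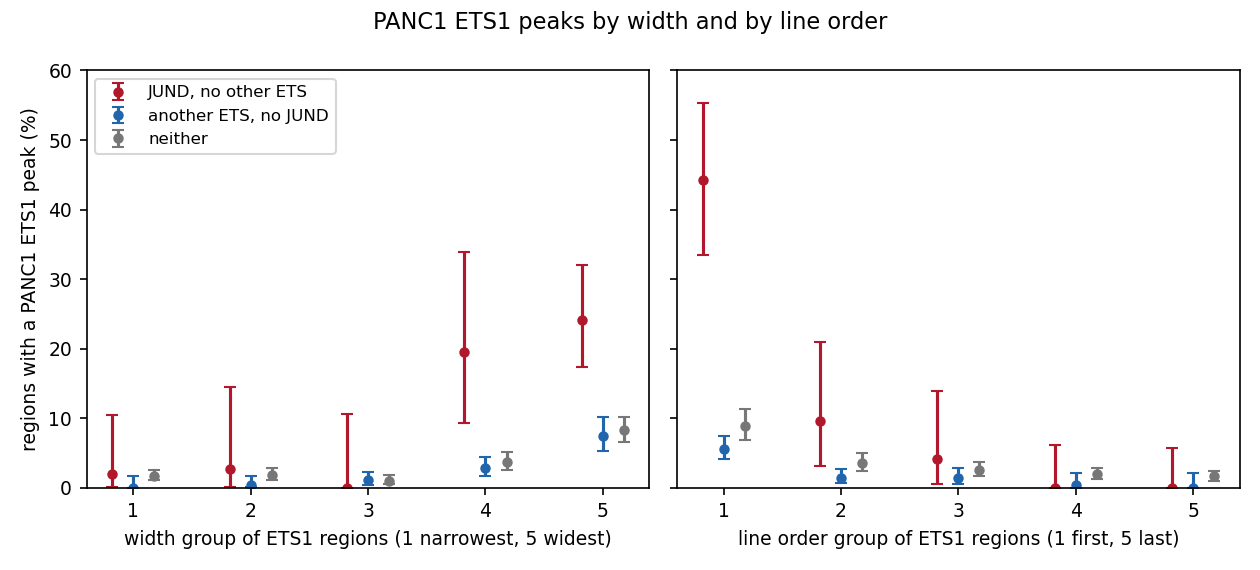
Share of regions with a PANC1 ETS1 peak (%) in 5 equal groups of all ETS1 regions by width (left, narrowest to widest) and by line in the first ETS1 list (right, first to last), for members and for both sets without JUND, with Clopper-Pearson 95% intervals. Members reach 24.1% in the widest group and 44.2% in the first line group, and 0 in the last 2 line groups.

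Members with a PANC1 peak were mostly wide and early in the ETS1 list. Their median width was 2296 bp, against 1492 bp in the 262 members without one. Their median line in the first ETS1 list was 459, against 4650 in members without a PANC1 peak. The distance between JUND and the ETS1 window had a median of 211 bp (quartiles 74.5 and 443.5 bp) with a PANC1 peak and of 166.8 bp (70 and 399 bp) without. These distances overlap over most of their range.

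Within the 45 shared members, the shortest distance from a PANC1 peak centre was more often to the ETS1 window than to JUND. In a member with several peaks, both distances can belong to different PANC1 peaks. This was so at chr11:65264430-65275740, with 206.5 bp to the window and 37.5 bp to a JUND peak kilobases away. The window centre was the nearer one in 30 of 45 (66.7%, 51.1 to 80.0%) and the JUND centre in 15. JUND peaks were up to 3796 bp wide and the windows at most 501 bp. A PANC1 peak inside a broad JUND peak can therefore lie far from its centre. The median of the shortest PANC1 distances was 154 bp for the window centre and 233.5 bp for the JUND centre. The window centre lay within 200 bp in 29 members and the JUND centre in 21. Of the 316 JUND peaks in members, 36 themselves met a PANC1 ETS1 peak, while 1 of the 788 JUND peaks outside both ETS1 lists did. This contrast is tied to the choice of the 788, since 302 of the 409 PANC1 peaks lay in DU145 ETS1 regions. JUND peaks in the other ETS1 regions were not counted. The members held 48 of the 409 PANC1 peaks.

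After the 6 already described, the widest members with a PANC1 peak were on chromosomes 20, 16 and 6. At chr20:30191763-30197109, the PANC1 centre lay 10.5 bp from the window centre. The region at chr16:3069931-3074975 held 1 JUND peak of 3796 bp and 2 PANC1 peaks, 853 and 3377.5 bp from the window. On chromosome 6, the region from 26122505 to 26126829 had its PANC1 peak 130 bp from the window, and the region from 30708883 to 30713082 had it 1539 bp away, within a JUND peak of 2776 bp.

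Members lay in parts of the genome rich in ETS1 regions. Another ETS1 region had its centre within 50 kb of 234 of 307 members (76.2%, 71.1 to 80.9%). The share was 73.1% (62.9 to 81.8%) for regions with JUND and another ETS factor, 54.1% (52.1 to 56.1%) for another ETS factor without JUND and 50.6% (49.2 to 51.9%) for neither. Regions that lie close together count each other, so these shares are a description without a test.

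Some members also lay near each other. Another member was within 50 kb of 87 of the 307 (28.3%, 23.4 to 33.7%), and these 87 formed 32 runs, of which 6 held 4 or more. Neighbours of the same set were not counted for the other sets, so this is a description. Each run starts and ends on a member by construction. The run at chr11:65148790-65275740 had 6 members among its 9 ETS1 regions, and it contains both of the widest members. A run at chr6:30654141-30737883 had 6 members among 7 ETS1 regions. In the other 4 runs of 4 or more, every ETS1 region was a member. They were 5 regions in chr12:52538643-52675706, 5 in chr6:43978030-44027366, 4 in chr1:153505887-153582131 and 4 in chr11:65657556-65684240. Both runs of 5 had no PANC1 peak. The run of 4 on chromosome 11 had 2 members with one, and that on chromosome 1 had 1. The run of 6 on chromosome 11 had 2 such members, and that on chromosome 6 had 1. These counts are small and were not compared.

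Chromosomes differed in their number of members. Chromosome 1 held the most, 41 (13.4% of members, against 10.2% of all ETS1 regions). Chromosome 6 held 29 (9.45%, against 5.33%), chromosome 17 held 28 (9.12%, against 7.11%), chromosome 11 held 27 (8.79%, against 5.25%), chromosome 12 held 26 (8.47%, against 5.43%) and chromosome 14 held 23 (7.49%, against 4.19%). At the low end, chromosome 13 held 1 (0.326%, against 1.45%), chromosome 21 held 1 (0.326%, against 1.12%), chromosome 3 held 4 (1.30%, against 5.02%), chromosome 7 held 5 (1.63%, against 5.05%) and of the 94 ETS1 regions on chromosome X 0 were members. PANC1 peaks were present in 9 of the 29 members on chromosome 6, 9 of the 41 on chromosome 1 and 8 of the 28 on chromosome 17. None of the 16 on chromosome 19 or the 14 on chromosome 8 held one. The same was so for all members on chromosomes 3, 4, 5, 7, 9, 13, 15, 18, 21 and 22. Over all chromosomes it was 45 of 307 members (14.7%). The share of all ETS1 regions with a PANC1 peak was not counted by chromosome. The shares of members by chromosome follow from where the JUND and ETS1 lists meet. Neither they nor the PANC1 counts were tested.

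**Figure D5:**
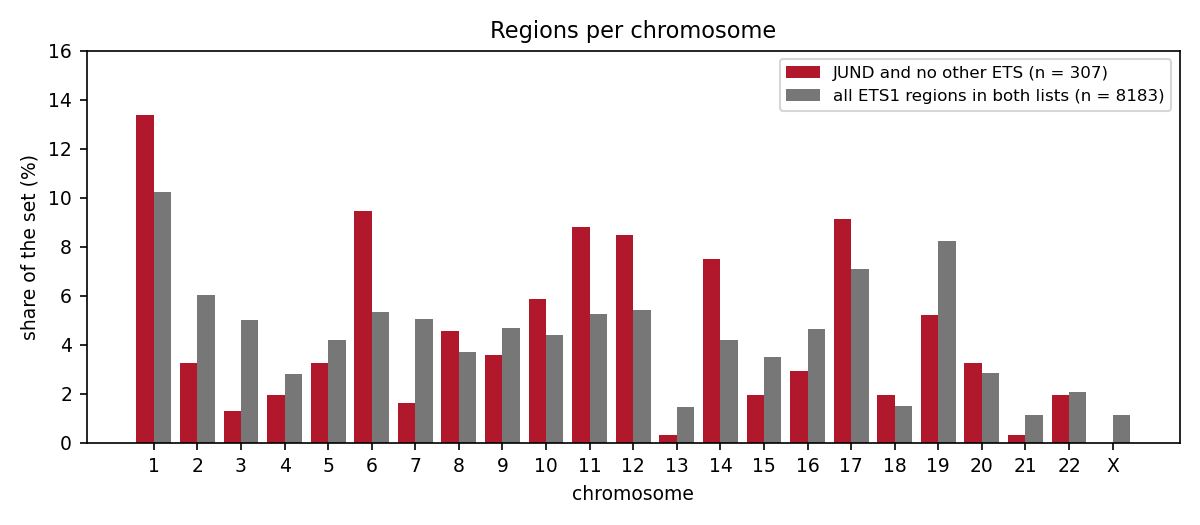
Share of members (red, n = 307) and of all ETS1 regions in both lists (grey, n = 8183) on each chromosome (%). Among others, chromosomes 1, 6, 11, 12, 14 and 17 hold a larger share of members than of ETS1 regions, and chromosomes 3, 7, 13, 19 and 21 a smaller one.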

How the data were processed

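The deposited files are 7 peak lists from 6 of the 8 samples, with chromosome, start and end alone. Positions are on hg19, and Bowtie2 2.0.6 is named without a role, both per the submitters' processing notes. The sources used here do not give the peak caller, threshold, use of inputs or depth, and the authors deposited no score, so counting intervals cover regions only. The DU145 ETS1 sample has 2 lists, the second marked R2. Whether they come from separate immunoprecipitations is not given, so they were counted as 1 sample.

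Overlaps and tests were computed in Python 3.11.15 with SciPy 1.17.1 and NumPy 2.4.6. Matplotlib 3.10.9 drew the figures. An overlap is at least 1 bp. Positions are printed counting from 1. Shares carry Clopper-Pearson 95% intervals, and Fisher's exact tests, two-sided, were adjusted over 3 comparisons. Overlap counts and odds ratios were first tested on simulated lists and tables. Regions were named by a fixed rule: the 10 widest members, the 10 widest with a PANC1 peak, the 5 with the closest JUND centre and the 5 with the least and the largest JUND overlap, of which the extremes are described. Members, lists and rules were chosen with earlier results of these data known. Of the alternative settings, 12 belong to the original design and were run, and 1 was added after seeing the data, as was the comparison with regions of JUND and another ETS factor. Intended motif, start-site and gene-list analyses need an hg19 genome or annotation and were not run.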

Additional observations from a re-analysis of the deposited data

How the results depend on the processing

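Members had more PANC1 ETS1 peaks than regions with neither JUND nor another ETS factor, and than regions with another ETS factor and no JUND, past the threshold in each of 13 alternatives, with odds ratios from 3.24 to 11.6 and from 3.93 to 14.8. The higher ends came from the earlier lines of every DU145 list. There the PANC1 list was kept whole because its lines are grouped by chromosome. All 13 alternatives used the same peak lists, and more JUND at regions shared with PANC1 was known beforehand. Passing the threshold in each is therefore no independent evidence. No alternative took the narrow or late regions alone. In the 3 narrowest width groups 2 of 120 members held a PANC1 peak, against 55 of 3509 regions with neither and 9 of 1263 with another ETS factor and no JUND. In the last 2 line groups it was 0 of 120 members, against 49 of 2711 and 1 of 433. The comparison with regions of JUND and another ETS factor passed the threshold in none of the 13, and its direction turned with peak centres within 200 bp (odds ratio 1.70), among the wider peaks of every list (1.34), pooled within 5 line groups (1.76) and pooled within 25 groups of width and line, chosen after seeing the data (1.69). The cause was not tested. The number of members was 120 with centres within 200 bp, 108 among the earlier lines and 93 among the wider peaks, since these settings keep fewer overlaps or peaks, and 224 to 350 in the other 7 alternatives. The share of members with a PANC1 peak was 10.8% with centres within 200 bp, 10.3% with the second ETS1 list alone and 38.0% among the earlier lines. The median distance of JUND was 95.5 bp with centres within 200 bp, which caps it by construction, 138 bp with the second list alone, 220.5 bp among the wider peaks and 126 bp with 500 bp intervals. No paired analysis was possible because each group has 1 sample. A further 6 settings, on motif windows, start sites and nearby genes, were not run for lack of an hg19 genome or annotation.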
